A study of Mus musculus with 28 samples.

Results

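The untreated CTLL2 cells of the series come from 2 sets, named Set1 and Set2 in the sample descriptions, which also call them batch 1 and batch 2. Members were chosen by title and by the set name, which gives 16 untreated libraries of the 28 in the series, 5 from Set1 and 11 from Set2. CTLL2 is an interleukin-2-dependent mouse cytotoxic T-cell line, labelled C57BL/6. In both sets, cells were kept for 24 h in complete medium, then given fresh medium with no exosomes and collected at 0 h or after 0.5, 2, 4 or 8 h. Set1 holds 1 library at each of the 5 times, and Set2 holds 3 libraries at 0 h and 2 at each later time. A further 12 libraries, 4 from Set1 and 8 from Set2, came from the same cells given fresh medium with exosomes of B16F0 mouse melanoma cells at 0.2 mg/ml and collected at 0.5, 2, 4 and 8 h. They serve here only as a second measurement of the set difference in libraries that the untreated comparison does not use. What distinguishes the sets (passage, culture density, serum, day of extraction, library preparation or sequencing) is not given in the sources used here, so these cannot be told apart. CTLL2 is 1 cell line, and the design text calls the replicates biological.

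CTLL2 cells model an activated cytotoxic T lymphocyte. Such cells store perforin and granzymes in granules, which they release onto a target cell, and they divide as long as interleukin-2 signals through its receptor. Their state moves with nutrients, oxygen, density and cytokine supply: the transcription factor MYC drives ribosome production and cell cycle entry, the hypoxia-inducible factors raise glycolytic enzymes, and surface receptors such as CD28 and CTLA4 promote or restrain activation.

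The sets differed widely and mostly by small amounts. Of 14450 genes tested, 6518 (45.1%) differed between the sets at an adjusted p below 0.05 (limma, Benjamini-Hochberg adjustment, time as a factor), 3307 (22.9%) higher and 3211 (22.2%) lower in Set1. Differences are given as log2 of the normalized count plus 1, Set1 minus Set2, with a standard error from the 16 libraries, and this scale understates the change of genes with low counts. The median absolute difference over all genes was 0.20, and 74.2% of the called genes differed by less than 1.5-fold. At 2-fold or more, 556 genes (3.85%) were higher and 156 (1.08%) lower in Set1. The Set1 library lay above the range of the Set2 libraries of the same time at all 5 times for 2008 genes (13.9%) and below it for 1847 (12.8%). All 5 Set1 libraries lay above all 11 Set2 libraries for 1005 genes (6.96%) and below them for 937 (6.48%). In a principal component analysis the first component, 41.6% of the variance, put all Set1 libraries on one side and all Set2 libraries on the other. Of the total sum of squares over genes, 27.4% went with time, 40.4% with set given time, 16.1% with set by time and 16.1% with the residual.

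The untreated libraries hold 10587840 to 21120943 reads each. Mean read totals did not differ detectably between sets (exact permutation of set labels within times, two-sided, p = 0.127, where 324 arrangements allow a smallest p of 0.00309). The share of reads in the 10 largest genes was 4.37% to 6.78% in Set1 and 3.57% to 4.29% in Set2, higher in Set1 at 5 of 5 times (exact permutation p = 0.00309, the smallest the arrangements can give, and 0.0154 adjusted over 5 library measures). One Set2 library, 4 h replicate 1, listed 15.7% of genes at 0 against 30.1% to 36.4% in the others. Transcripts of skeletal muscle appeared in 3 of the libraries: Acta1 stood at 202 normalized counts in the Set1 8 h library, at 136 in Set2 2 h replicate 2 and at 206 in Set2 8 h replicate 2, against at most 3.57 in the other 13. Without these 3 libraries 5641 genes were called. In the Set1 libraries of 2 h and 8 h, short transcripts stood higher: over the 2883 genes with the least exon sequence (12 to 1574 bases) the median difference was 0.24 at both times, against 0.02, 0.03 and -0.01 at 0, 0.5 and 4 h. Without those 2 times 5477 genes were called.

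Among the largest proportional differences were those of MHC class II genes, whose products present peptides to CD4 T cells and which mouse T cells usually keep silent. H2-Aa, the class II alpha chain, stood at 143, 156, 227, 165 and 189.9 normalized counts in Set1 (0 h first, then 0.5, 2, 4 and 8 h, the order used for all Set1 values) and at 0.888 to 7.72 (median 3.57) in Set2. The Set1 libraries were all far above the Set2 libraries, with a difference of 5.18 ± 0.29 (adjusted p = 3.79e-10). H2-Eb1, a class II beta chain, stood at 109.6, 97.4, 110.0, 90.9 and 116 in Set1 and at 0 to 5.15 (median 3.19) in Set2, a difference of 4.93 ± 0.32. H2-Ab1, the other beta chain, differed by 4.80 ± 0.33, and Cd74, the invariant chain that escorts class II molecules, by 4.58 ± 0.22. For Cd74 the Set1 values were 337, 244, 279.7, 274 and 266, and the Set2 values ran from 5.32 to 18.1 (median 9.82). None of these 4 genes overlapped between sets. H2-DMb2, another class II gene, differed by 4.00 ± 0.37. H2-Eb2 had 65 reads over the Set1 libraries and 0 over the 11 Set2 libraries, at least 53.7-fold higher in Set1 against a floor of 3 reads over Set2. Ciita, the master activator of class II transcription, stood at 36.1, 25.5, 30.5, 19.5 and 21.6 in Set1 and at 14.1 to 26.7 (median 20.6) in Set2, and its difference of 0.34 ± 0.18 did not pass the test (adjusted p = 0.14).

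Along chromosome 17 the difference was uneven. Between H2-Oa and H2-Eb2 (GRCm38, chromosome 17, bases 34092340 to 34341412) all 13 protein-coding genes present in the deposited data were tested, 8 higher and 3 lower in Set1. The 8 that were higher were the class II genes H2-Oa, H2-DMa, H2-DMb2, H2-DMb1, H2-Ab1, H2-Aa, H2-Eb1 and H2-Eb2. The class II gene H2-Ob was not among the 13. Among the class I pathway and other genes that lie between them, Tap2, a peptide transporter subunit, was lower (-0.34), as were Tap1 (-0.14) and Brd2 (-0.25). The immunoproteasome subunits Psmb9 (0.08) and Psmb8 (-0.01) did not pass the test. This region and its boundaries were chosen after the values of its genes were seen.

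Promoters of class II genes carry a conserved set of boxes, one of which is the inverted CCAAT or Y box. The 250 bases before the RefSeq start of 3 class II genes are shown because all 3 were higher in Set1, with each ATTGG or CCAAT (the same motif on either strand) in capitals; they are from GRCm38.p6, H2-Aa at chr17:34287824-34288073 on the minus strand, H2-Eb1 at chr17:34305617-34305866 and H2-DMb2 at chr17:34144999-34145248 on the plus strand.
H2-Aa: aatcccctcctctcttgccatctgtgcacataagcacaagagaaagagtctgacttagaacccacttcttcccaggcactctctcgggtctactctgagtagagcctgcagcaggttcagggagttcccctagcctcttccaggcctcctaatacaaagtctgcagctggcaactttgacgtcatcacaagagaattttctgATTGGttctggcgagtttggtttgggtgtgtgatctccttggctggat
H2-Eb1: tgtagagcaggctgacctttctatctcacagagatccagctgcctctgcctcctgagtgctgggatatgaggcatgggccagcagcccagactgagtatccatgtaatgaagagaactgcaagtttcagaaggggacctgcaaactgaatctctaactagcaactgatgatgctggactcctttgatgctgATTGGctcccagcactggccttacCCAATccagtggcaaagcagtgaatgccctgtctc
H2-DMb2: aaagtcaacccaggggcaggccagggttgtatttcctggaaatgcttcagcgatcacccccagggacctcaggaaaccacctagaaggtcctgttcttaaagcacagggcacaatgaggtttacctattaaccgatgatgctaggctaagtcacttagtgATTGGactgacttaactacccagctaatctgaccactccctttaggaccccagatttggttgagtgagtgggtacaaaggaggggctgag
The motif occurred in the same window of 8 of the 9 RefSeq promoters found for 8 of the 9 class II genes sought, and in 33.8% of all 32851 mouse promoters of the table.

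Several genes that define the cells usually expressing class II were at or near 0 in both sets. Summed over libraries, the B-cell genes Ms4a1 (CD20) and Ighm had 1 and 4 reads in Set1 and 1 and 8 in Set2. The macrophage genes Lyz2 and Csf1r had 3 and 10 reads in Set1 and 4 and 9 in Set2. Of 20 macrophage and dendritic cell markers 8 passed the filter on low counts, with 4 higher and 2 lower in Set1, and those higher were H2-Aa, H2-Ab1, Cd74 and the Fc receptor Fcgr3. The summed level of that list was 7673 to 10022 in Set1 and 9939 to 11346 in Set2, most of it from Itgax, an integrin these cells express at 5747, 5765, 5232, 7509 and 4940.3 in Set1. Of 11 B-cell markers 3 passed the filter and all were higher in Set1. Cd79b, a signalling chain of the B-cell receptor, stood at 44.7, 35.0, 58.3, 47.6 and 39.6 in Set1 and at 0 to 7.03 (median 2.78) in Set2, a difference of 3.81 ± 0.38. Pax5, a B-lineage transcription factor, differed by 1.02 ± 0.23. Cd79a, the partner chain of Cd79b, had 15 reads over Set1 and 23 over Set2. The summed B-cell list was 77.5 to 112 in Set1 and 18.02 to 43.1 in Set2. In bulk RNA, more cells of a type and more RNA per cell cannot be told apart.

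**Figure D1:**
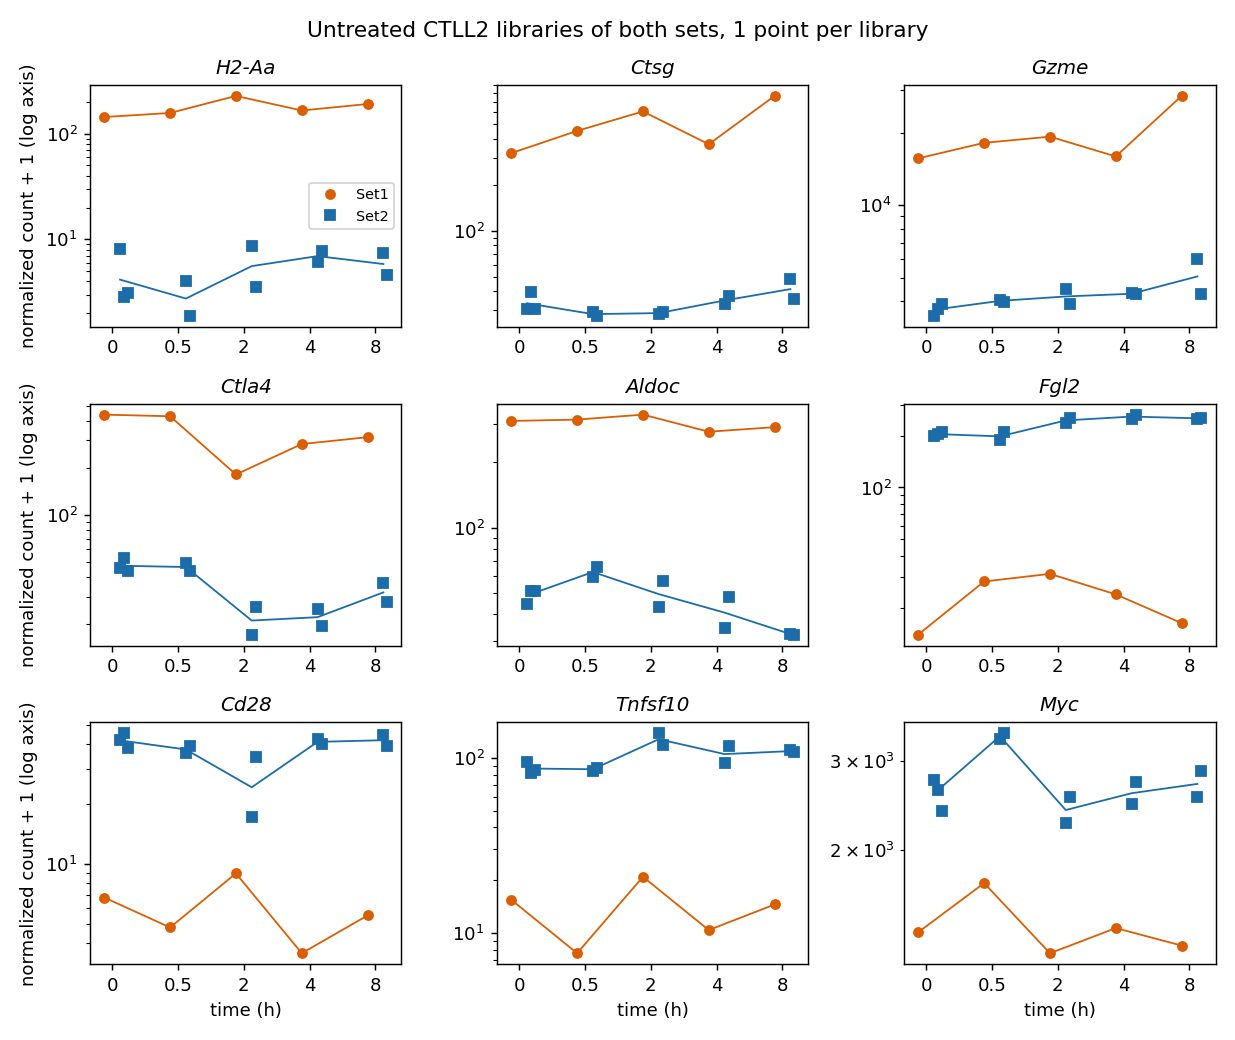
Normalized count plus 1 (vertical, log axis) of 9 genes in each of the 16 untreated libraries by time in hours (horizontal, evenly spaced); orange circles are Set1 libraries, blue squares are Set2 libraries, and lines join the mean log2 value of each time. In all 9 panels the 5 Set1 libraries lie wholly above or wholly below the 11 Set2 libraries, as for Ctla4 at 180.3 or more in Set1 and 51.8 or less in Set2.

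Granule protein genes were mostly higher in Set1. Of 18 cytotoxic effector genes 16 were tested, 10 higher and 2 lower in Set1, with a median of 0.41 against 0.01 over all genes. Of all genes tested 22.9% were higher and 22.2% lower, the shares to set beside every list count here. Without the 2 h and 8 h libraries the median was 0.27, with 9 higher and 2 lower. Over all genes that fit called 2748 higher and 2729 lower. Prf1, perforin, stood at 38586, 41392, 39322, 33059.5 and 34918 normalized counts in Set1 and at 14211 to 22311 (median 18346) in Set2. No Set1 library overlapped Set2, and the difference was 1.01 ± 0.057, or 2.02-fold (adjusted p = 4.89e-10). Gzme stood at 15675, 18179, 19283, 15963 and 28451 in Set1 and at 3482 to 6011 (median 4053) in Set2, a difference of 2.17 ± 0.079. Gzmd differed by 1.93 ± 0.086 and Gzmg by 1.69 ± 0.076, both without overlap. Gzmb, the main apoptosis-inducing granzyme, differed by only 0.37 ± 0.070: its Set1 values were 47273, 45273, 54827, 39728 and 47351 and its Set2 values ran from 30625 to 39923 (median 35780.4), so the sets overlapped. Tnfsf10 (TRAIL), a death ligand of the cell surface, went the other way. It stood at 14.4, 6.62, 19.9, 9.34 and 13.5 in Set1 and at 80.5 to 137 (median 94.3) in Set2, a difference of -2.96 ± 0.13 (adjusted p = 2.95e-11). Effector cytokines were mixed, with 3 of 8 tested genes higher and 2 lower. Ltb, lymphotoxin beta, differed by 1.94 ± 0.19, Il10 by 1.82 ± 0.21 and the chemokine Ccl5 by 1.74 ± 0.25, the last from Set1 levels of at most 22.5. Ifng, interferon gamma, stood at 41.8, 82.3, 75.6, 60.3 and 82.8 in Set1 and at 28.7 to 99.5 (median 56.6) in Set2, overlapping, and did not pass the test (0.22 ± 0.15).

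The granzyme genes on chromosome 14 lie in 1 cluster with mast cell and neutrophil protease genes. Between Cma1 and Gzmb (GRCm38, chromosome 14, bases 55941451 to 56262260) the deposited data hold 14 protein-coding genes, of which 10 were tested, 9 higher and 1 lower in Set1, with a median of 2.00. Ctsg, cathepsin G, a protease of neutrophil granules, stood at 322, 450.2, 604, 368 and 764 in Set1 and at 26.7 to 46.9 (median 29.8) in Set2, a difference of 3.84 ± 0.14 (adjusted p = 3.22e-12). Cma1, mast cell chymase, differed by 2.07 and Mcpt8, a basophil protease, by 2.09. In chromosomal order from Ctsg the difference was 3.84, then 2.17 for Gzme, 1.93 for Gzmd, 1.69 for Gzmg, 2.38 for Gzmn, 1.07 for Gzmf, -0.31 for Gzmc and 0.37 for Gzmb at the end. Gzmc was the one gene of the cluster lower in Set1. Outside the cluster, on chromosome 13, Gzma differed by 0.75 ± 0.12 and Gzmk by 0.45 ± 0.10. Gzmd, Gzme, Gzmf and Gzmg have closely similar sequences, so how their reads were shared among them is uncertain. The region was chosen after its values were seen.

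**Figure D2:**
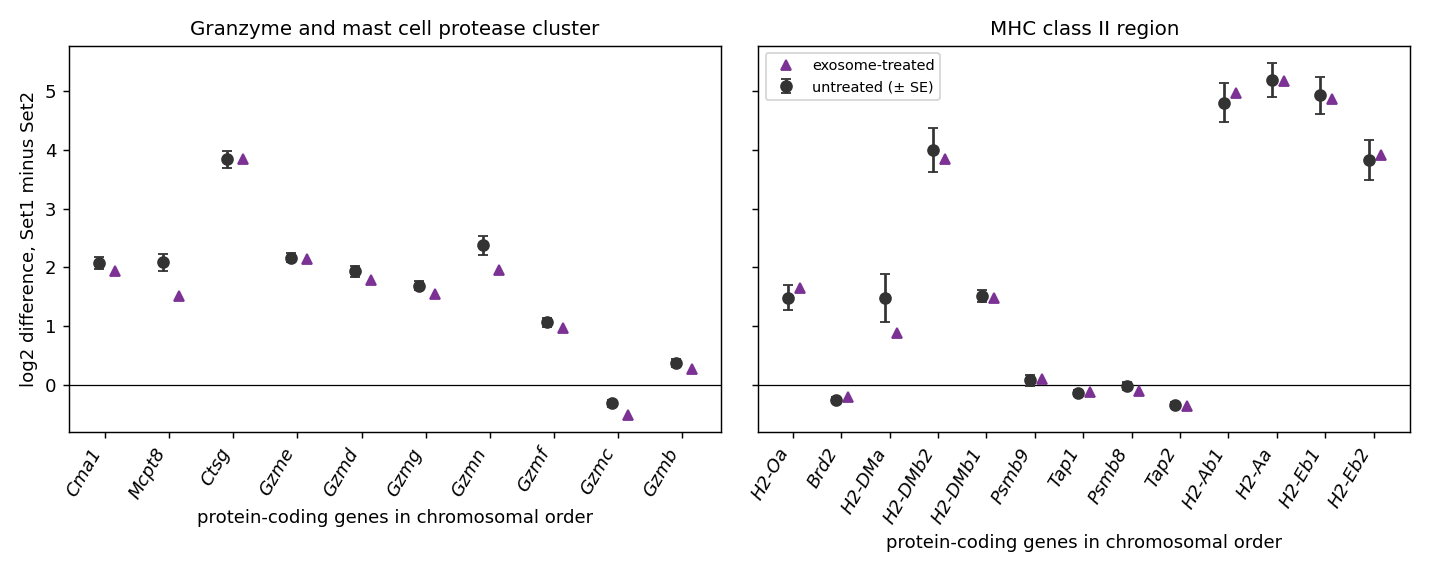
Log2 difference, Set1 minus Set2 (vertical), of each tested protein-coding gene in chromosomal order (horizontal) for the granzyme cluster (left) and the MHC class II region (right); black circles are the untreated libraries with their standard error and purple triangles the exosome-treated libraries. In the left panel every gene but Gzmc lies above 0; in the right panel in untreated cells the class II genes lie between 1.48 and 5.18 and the 5 genes among them that are not class II lie between -0.34 and 0.08.

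Receptors that restrain or promote activation differed in both directions. Of 19 inhibitory and costimulatory receptor genes 11 were tested, 7 higher and 1 lower in Set1 (median 0.57). Ctla4, an inhibitory receptor that competes with CD28 for its ligands, stood at 437, 427, 180.3, 283 and 313 in Set1 and at 16.1 to 51.8 (median 35.6) in Set2. All Set1 libraries were above all Set2 libraries, a difference of 3.299 ± 0.12 or 9.84-fold (adjusted p = 2.76e-12). Cd28, the costimulatory receptor next to it on chromosome 1, stood at 5.77, 3.78, 7.95, 2.55 and 4.50 in Set1 and at 16.1 to 44.4 (median 38.4) in Set2, a difference of -2.70 ± 0.23 with no overlap. Tnfrsf9 (4-1BB), a costimulatory receptor of activated T cells, differed by 1.04 ± 0.072, and Cd200r1, an inhibitory receptor, by 0.98 ± 0.080. Its relative Cd200r2 differed by 2.48 ± 0.11; the similar sequences of the 2 leave the sharing of their reads uncertain. Tigit, an inhibitory receptor, stood at 82.2, 112, 137, 124 and 70.2 in Set1 and at 193 to 315 (median 245) in Set2, the one called member of the list that was lower (-1.26 ± 0.12). Of 18 T-cell identity genes 17 were tested, 10 higher and 2 lower, with a median of 0.27 that was 0.13 without the 2 h and 8 h libraries. Cd8a, the coreceptor of cytotoxic T cells, stood at 114, 115, 142, 152 and 96.3 in Set1 and at 46.8 to 85.7 (median 71.2) in Set2 (0.84 ± 0.11). Cd2, an adhesion receptor, differed by 1.05 ± 0.073 and Cd3g by 0.78 ± 0.10. Cd3e, another chain of the receptor complex, ranged over overlapping levels, 3788, 3364, 3563, 3975 and 2597 in Set1 and 2511 to 3779 (median 3502) in Set2, with a difference of 0.03 ± 0.073. The summed identity list was 86555 to 107130.0 normalized counts in Set1 and 81146 to 88527 in Set2, so T-cell markers were present in every library.

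Homing and adhesion genes were mostly lower in Set1. Of 17 listed 12 were tested, 1 higher and 8 lower (median -0.33). Itgae (CD103), an integrin that binds epithelial cadherin, stood at 51.9, 59.6, 41.1, 60.3 and 43.2 in Set1 and at 115 to 159 (median 133) in Set2, a difference of -1.37 ± 0.086. Cd44, a hyaluronan receptor of memory T cells, was low in both sets and differed by -1.29 ± 0.18. The chemokine receptors Ccr7, which guides cells to lymph nodes, and Cx3cr1 differed by -0.87 ± 0.078 and -0.79 ± 0.15. All 4 were below Set2 in every Set1 library. Cdh1, E-cadherin, the ligand of the Itgae integrin and the only epithelial marker of 10 to pass the filter, stood at 14.4, 27.4, 10.6, 13.6 and 11.7 in Set1 and at 2.43 to 8.25 (median 6.22) in Set2 (1.33 ± 0.23).

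Among transcription factors of T cells 18 of 25 were tested, 7 higher and 2 lower. Foxp3, which directs regulatory T cells, differed by 0.76 ± 0.13 from Set1 levels of 79.3, 72.8, 71.6, 69.6 and 53.1. Prdm1 (BLIMP1), a driver of terminal effector differentiation, differed by 0.65 ± 0.11, Nr4a3 by 0.62 ± 0.10 and Irf8 by 0.52 ± 0.049. In Prdm1 the Set1 library was at 2963 at 0 h and at 695 at 2 h, and the call was lost with no time factor. The interleukin-2 receptor list was balanced, with 6 of 20 genes higher and 5 lower. Il2rb, the signalling beta chain, stood at 21318, 20259.9, 18959.7, 17632 and 16548 in Set1 and at 13340.1 to 16027 (median 14652) in Set2, a small difference without overlap (0.36 ± 0.051). Il2ra, the alpha chain, differed by -0.20 ± 0.076 and Il12rb2, an interleukin-12 receptor chain, by -0.22 ± 0.086; both calls lay close to the threshold (adjusted p = 0.0438 and 0.0485) and were lost under other settings, among them the fit with no time factor. Ptpn11 (SHP2), a phosphatase of cytokine receptor signalling, differed by -0.50 ± 0.049 with no overlap.

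Ribosome biogenesis and DNA replication genes were mostly lower in Set1. Of 42 MYC and ribosome biogenesis genes, all tested, 31 were lower and 2 higher, with a median of -0.35. Myc itself stood at 1374, 1719, 1249, 1400.5 and 1293 normalized counts in Set1 and at 2262 to 3403 (median 2630.4) in Set2. Every Set1 library was below every Set2 library, a difference of -0.95 ± 0.051 or 1.94-fold (adjusted p = 2.31e-10). Polr1b, a subunit of the RNA polymerase that transcribes ribosomal RNA, differed by -0.85 ± 0.10, and Dkc1, which modifies ribosomal RNA, by -0.69 ± 0.053. Utp20, a factor of the small subunit processome, differed by -0.74 ± 0.11. Of 35 G1/S and DNA replication genes tested, 28 were lower and 0 higher, with a median of -0.29 (edgeR and DESeq2 on recovered reads also 28 and 0, with 0 higher at an unadjusted p below 0.05). Pole, the catalytic subunit of the leading-strand polymerase, stood at 2176, 1592, 1152, 1799 and 1073 in Set1 and at 2259 to 3052 (median 2722) in Set2, a difference of -0.85 ± 0.11. Cdc6, which loads the replicative helicase, differed by -0.57 ± 0.074, Mcm7, a subunit of that helicase, by -0.55 ± 0.053, and Rfc5, of the clamp loader, by -0.55 ± 0.055. None of these 4 overlapped between sets. Mitotic genes were less uniform, 14 of 35 lower and 5 higher (median -0.13). Cdc20, an activator of the anaphase-promoting complex, differed by -0.31 ± 0.042 and Cdc25b, a phosphatase that starts mitosis, by 0.43 ± 0.053. Without the 2 h and 8 h libraries 8 mitotic genes were lower. Cdk6, a G1 kinase, differed by -0.68 ± 0.10, and its inhibitor Cdkn2a also by -0.53 ± 0.075.

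The medians of both lists were further from 0 at later times. The G1/S median was -0.08 at 0 h, -0.25 at 0.5 h, -0.34 at 2 h, -0.39 at 4 h and -0.47 at 8 h, and the ribosome biogenesis median was -0.16, -0.27, -0.44, -0.46 and -0.51. From 0 to 8 h the G1/S median moved by 0.25 in Set2 and by -0.11 in Set1, and the ribosome biogenesis median by 0.20 and -0.12. Each Set1 time is 1 library, and the list medians by time carry no test. The set-by-time test, described below, called 8 of 35 G1/S and 14 of 42 ribosome biogenesis genes, against 7.41% of all genes. The count over all genes rested on single libraries. Within Set2, 1996 genes (14.2%) were higher and 1927 (13.8%) lower at 8 h than at 0 h of 14010 tested. These counts moved with single libraries: in all 2568 genes were called without Set2 0 h replicate 2, 5380 without 8 h replicate 3 and 2713 without 8 h replicate 2. Of the 3923 genes 3138 (80.0%) moved with the same sign in Set1, and over all 14010 genes the 2 changes, which share no library, had a Pearson r of 0.45, a description across genes that are not independent replicates. The Set1 8 h library and Set2 8 h replicate 2 had library features in common. Acta1 stood at 202 and 206 normalized counts in them. Pseudogenes held 3.97% and 3.63% of their reads, against 3.33% in Set2 8 h replicate 3. The part of such features in the shared direction was not tested. Promoters of 2 replication genes that were lower in Set1 and hold a match are shown for the 250 bases before their start, with matches to the E2F motifs TTTCCCGC and TTTGGCGC, on either strand, in capitals (RefSeq, GRCm38.p6; Cdc6 at chr11:98907901-98908150 on the plus strand, Mcm7 at chr5:138171884-138172133 on the minus strand).
Cdc6: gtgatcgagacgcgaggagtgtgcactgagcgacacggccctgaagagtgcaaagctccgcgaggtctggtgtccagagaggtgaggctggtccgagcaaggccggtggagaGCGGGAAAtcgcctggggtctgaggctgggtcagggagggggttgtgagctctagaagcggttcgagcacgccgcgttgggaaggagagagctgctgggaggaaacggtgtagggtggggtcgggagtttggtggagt
Mcm7: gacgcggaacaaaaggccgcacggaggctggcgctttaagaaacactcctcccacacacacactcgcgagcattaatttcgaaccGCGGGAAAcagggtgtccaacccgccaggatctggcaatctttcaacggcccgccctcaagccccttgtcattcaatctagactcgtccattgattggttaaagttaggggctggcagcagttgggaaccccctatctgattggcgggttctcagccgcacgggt
These motifs were found in 6 of the 30 promoters of the 27 G1/S genes with a promoter in the table, and in 1.30% of all promoters.

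Genes that low oxygen is known to raise were mostly higher in Set1. Of 24 hypoxia-inducible genes 21 were tested, 17 higher and 1 lower (median 0.62). Ankrd37, a target of hypoxia-inducible factor 1, stood at 2424, 1326, 716, 1331 and 2029 in Set1 and at 109.8 to 936 (median 331) in Set2. Its lowest Set1 value was at 2 h and its highest at 0 h; it lay above the Set2 libraries of its own time at 5 of 5 times, and differed by 2.11 ± 0.18 (adjusted p = 5.36e-08). Ero1l, an oxidase of the endoplasmic reticulum, stood at 14974, 14607, 9539, 6996 and 7052 in Set1 and at 2645 to 7453 (median 4185) in Set2 (1.26 ± 0.077). Ddit4 (REDD1), an inhibitor of the growth kinase mTORC1, differed by 1.07 ± 0.082. Ak4, a mitochondrial adenylate kinase, was the called exception: it stood at 20.2, 32.2, 31.8, 31.4 and 46.8 in Set1 and at 49.8 to 104 (median 89.8) in Set2, a difference of -1.42 ± 0.14 with no overlap. Of 22 glycolysis genes 21 were tested, 16 higher and 2 lower (median 0.25). Aldoc, an aldolase, stood at 309, 313, 330.0, 275 and 289 in Set1 and at 31.2 to 64.9 (median 46.8) in Set2, a difference of 2.73 ± 0.11 with no overlap. Slc16a3, a lactate exporter, differed by 1.06 ± 0.18, the enzyme Tpi1 by 0.57 ± 0.077 and the glucose transporter Slc2a1 by 0.62 ± 0.089; the Slc2a1 call was lost with no time factor.

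Ankrd37 and Ddit4 promoters are shown because both belong to the hypoxia list and were higher in Set1, again for the 250 bases before the start, with the hypoxia response core ACGTG or GCGTG, on either strand, in capitals (RefSeq, GRCm38.p6; Ankrd37 at chr8:45999851-46000100 and Ddit4 at chr10:59951771-59952020, both on the minus strand).
Ankrd37: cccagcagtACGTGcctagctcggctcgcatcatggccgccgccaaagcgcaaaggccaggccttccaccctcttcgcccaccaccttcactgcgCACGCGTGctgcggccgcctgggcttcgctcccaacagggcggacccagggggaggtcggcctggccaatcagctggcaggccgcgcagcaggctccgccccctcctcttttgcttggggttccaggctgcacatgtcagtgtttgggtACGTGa
Ddit4: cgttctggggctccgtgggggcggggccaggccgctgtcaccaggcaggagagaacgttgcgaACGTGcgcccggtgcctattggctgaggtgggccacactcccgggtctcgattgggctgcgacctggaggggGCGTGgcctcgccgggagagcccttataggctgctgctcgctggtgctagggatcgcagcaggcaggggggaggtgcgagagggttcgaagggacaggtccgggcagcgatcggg
Ankrd37 had 4 matches, of which one pair overlaps, and Ddit4 had 2. The 20 listed genes with a promoter in the table had 30 promoters, of which 23, from 19 genes, held a match. Of all promoters 38.6% did.

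**Figure D3:**
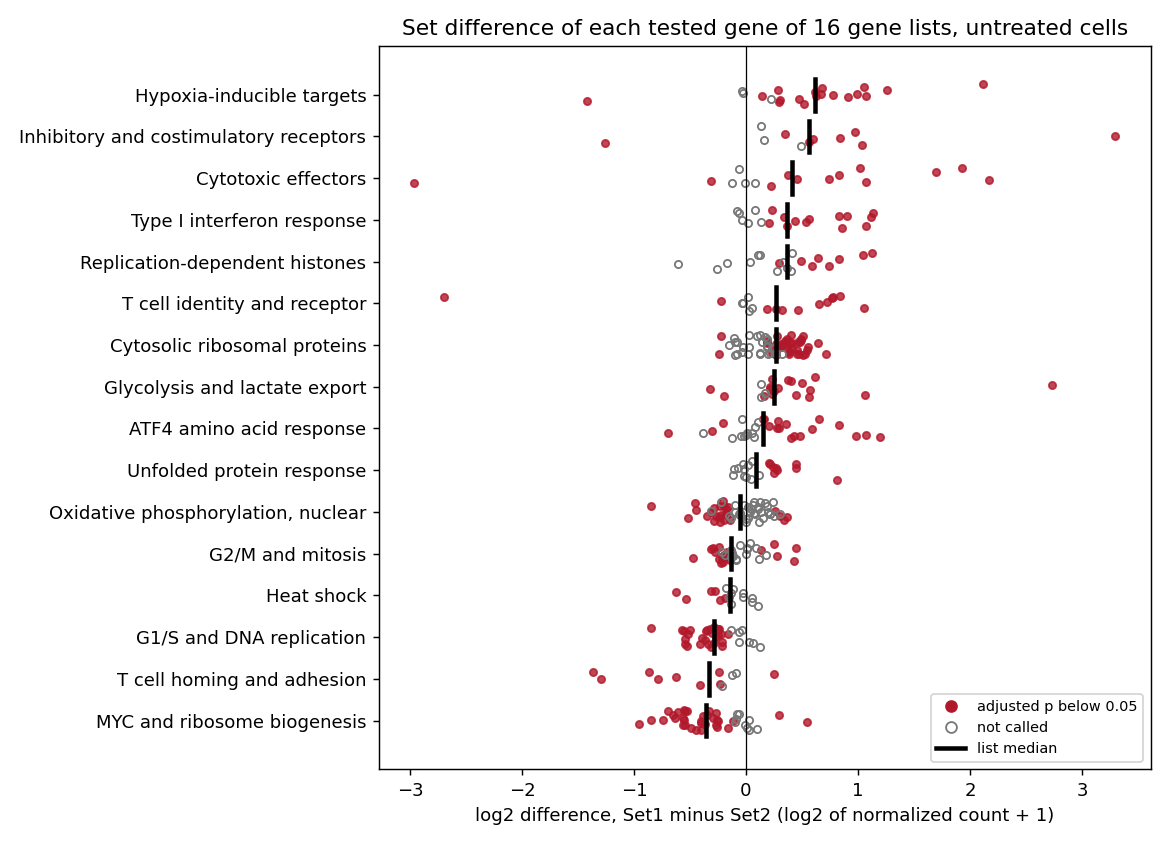
Log2 difference, Set1 minus Set2 (horizontal), of each tested gene in 16 gene lists (rows); red points passed an adjusted p of 0.05, open grey points did not, and black bars are list medians, with vertical scatter added for legibility. Hypoxia-inducible targets lie mostly right of 0 with a median of 0.62, and MYC and ribosome biogenesis genes mostly left with a median of -0.35.

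Stress programmes differed by kind. Of 30 ATF4 amino acid response genes tested, 16 were higher and 3 lower (median 0.16). Trib3, a pseudokinase that restrains the response, stood at 251, 312, 227, 197 and 279.9 in Set1 and at 79.9 to 159 (median 109) in Set2 (1.20 ± 0.087), with no overlap. Chac1, which degrades glutathione, differed by 0.98 ± 0.095 and Pycr1, of proline synthesis, by 0.83 ± 0.069. The unfolded protein response had 9 of 20 genes higher and 0 lower (edgeR and DESeq2 also 0 lower, as at an unadjusted p below 0.05), with Hspa5 (BiP), the chaperone of the endoplasmic reticulum, at 0.45 ± 0.059. Heat shock genes went the other way, 0 of 16 higher and 6 lower (edgeR and DESeq2 also 0 higher, and 1 at an unadjusted p below 0.05). Both lists varied with time. From 0 h to 8 h the unfolded protein response median was 0.29, 0.13, 0.25, 0.02 and -0.01. The heat shock median was 0.06, -0.08, -0.14, -0.16 and -0.33. These medians rest on 1 Set1 library per time and carry no test. Hspd1, a mitochondrial chaperonin, differed by -0.62 ± 0.083 and Ahsa1, a cofactor of HSP90, by -0.54 ± 0.047. Nfe2l2 (NRF2), the regulator of antioxidant genes, stood at 33.2, 27.4, 34.5, 34.8 and 25.2 in Set1 and at 93.0 to 126 (median 111) in Set2, a difference of -1.79 ± 0.10. Its target list was split, 6 of 18 higher and 7 lower, and Hmox1 (heme oxygenase 1) differed by 0.57 ± 0.073. Of 18 p53 targets 9 were higher and 5 lower, with Btg2 at 0.55 ± 0.074 and Eda2r at -1.24 ± 0.12. Among the BCL-2 family the death promoter Bcl2l11 (BIM) stood at 1611, 1700.4, 1454, 2452 and 1698 in Set1 and at 2602 to 3183 (median 2948) in Set2 (-0.74 ± 0.059), while Bmf, another death promoter, differed by 0.67 ± 0.087.

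Interferon-stimulated genes were mostly higher in Set1. Of 30 type I interferon response genes 19 were tested, 13 higher and 0 lower (median 0.37, and 0.17 without the 2 h and 8 h libraries, with 12 higher and 0 lower). With edgeR and DESeq2 it was also 13 higher and 0 lower, and 0 were lower at an unadjusted p below 0.05. Mx1, an antiviral GTPase, stood at 463, 688, 719.7, 769 and 688 in Set1 and at 198 to 372 (median 298) in Set2, a difference of 1.13 ± 0.10 with no overlap. Zbp1, a nucleic acid sensor, differed by 1.12 ± 0.13, the antiviral-response gene Trim30a by 1.07 ± 0.084 and Dhx58, of the RNA-sensing pathway, by 0.90 ± 0.093. For MHC class I, 7 of 19 genes were higher and 3 lower, with H2-T23 at 0.61 ± 0.078. B2m, the light chain of class I, stood at 23824, 26315, 35164, 26940.4 and 32016 in Set1 and at 19517 to 25095 (median 22178) in Set2 (0.35 ± 0.074), overlapping. NF-kB targets were split, 6 of 19 higher and 7 lower. Tnfaip3 (A20), a feedback inhibitor of NF-kB, stood at 163, 81.3, 43.7, 104 and 49.5 in Set1 and at 14.6 to 41.5 (median 17.1) in Set2 (1.90 ± 0.18). Of 25 immediate early genes tested 11 were higher and 7 lower, with Etv4 at 0.88 ± 0.12 and the phosphatase Dusp6 at 0.73 ± 0.10; the Dusp6 call was lost with no time factor.

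The list medians of ribosomal protein and mitochondrial respiration genes differed between times, a description with no test; the set-by-time test called 16 of 63 and 17 of 59 of their genes, against 7.41% of all genes, and the count over all genes rested on single libraries. Of 63 cytosolic ribosomal protein genes 36 were higher and 2 lower in Set1, with medians of 0.09, 0.12, 0.69, 0.06 and 0.53 from 0 h to 8 h. Without the 2 h and 8 h libraries 15 were higher and 8 lower, with a median of 0.08. Of 59 nuclear oxidative phosphorylation genes 4 were higher and 21 lower, with medians of -0.17, -0.12, 0.22, -0.25 and 0.13, and without those times 1 was higher and 33 were lower. Ribosomal protein messages are short. The 2 h and 8 h shifts came with the higher level of short transcripts in the same Set1 libraries, where the Spearman correlation across genes of the set difference with exon length was -0.25 at 2 h and -0.30 at 8 h, against 0.03, -0.07 and -0.01 at 0, 0.5 and 4 h. Its part in the list values was not tested. Atp5g1, a subunit of ATP synthase, stood at 343, 347, 424, 359 and 459.8 in Set1 and at 565 to 967 (median 668) in Set2, lower at all 5 times (-0.85 ± 0.073), and Sdha, a subunit of complex II, differed by -0.45 ± 0.047 with no overlap. Histone genes of the replication-dependent class, 19 of 29 tested, had 8 higher and 0 lower (edgeR 7 and 0, DESeq2 6 and 0, and 0 lower at an unadjusted p below 0.05), with Hist1h1c at 1.13 ± 0.095; most are near-identical copies and their counts are uncertain.

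**Figure D4:**
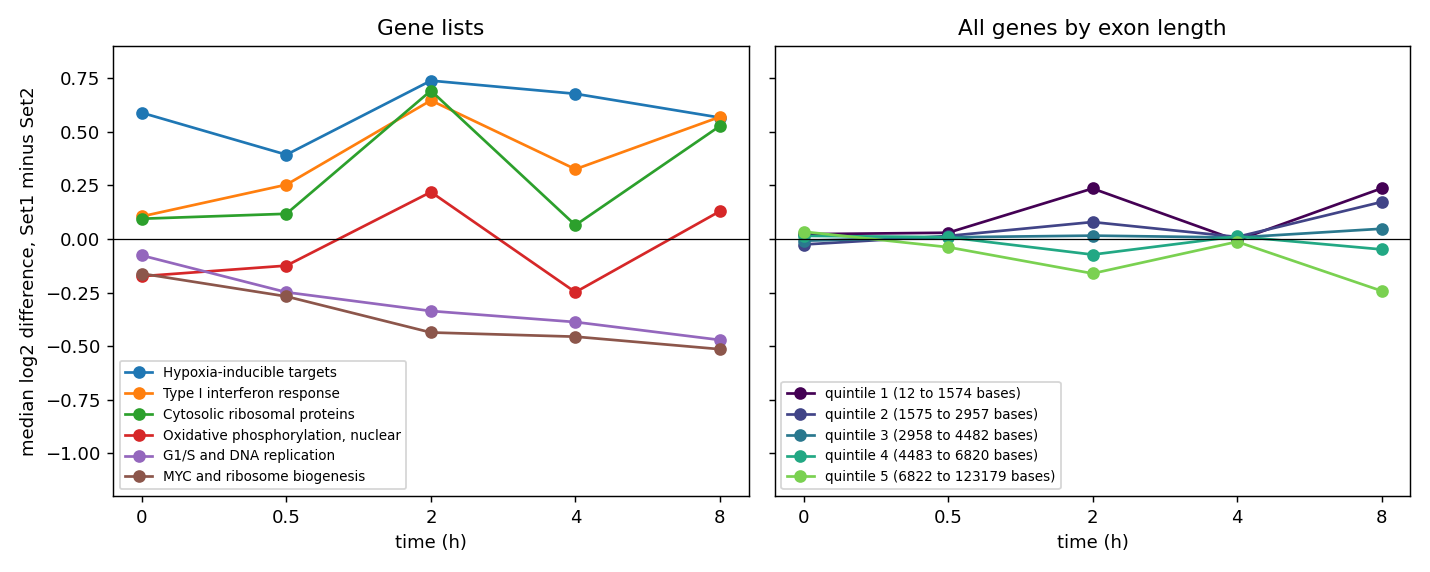
Median log2 difference, Set1 minus Set2 (vertical), by time in hours (horizontal) for 6 gene lists (left) and for all tested genes in 5 groups of exon length (right). G1/S and ribosome biogenesis medians fall from -0.08 and -0.16 at 0 h to -0.47 and -0.51 at 8 h, while ribosomal protein genes and the shortest genes peak at 2 h and 8 h.

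Whether the set difference itself changed with time was tested with an F test on the 4 interaction terms, which called 1071 genes (7.41%). That count rested on single libraries: it lay between 73 and 438 without any 1 of the 9 Set2 libraries of 0 to 4 h, at 5586 without Set2 8 h replicate 2, at 3416 without 8 h replicate 3 and at 76 without 2 h. The 6 genes of smallest p, each at an adjusted p of 0.00796, were Etv4, Rgs11, Arnt2, Nop10, Anxa1 and Gm6204. Rgs11, a regulator of G-protein signalling, stood at 599.9, 659, 445, 376 and 590.3 in Set1 and at 91.0 to 529 (median 236) in Set2. Anxa1, a membrane-binding protein that limits inflammation, stood at 3618, 4350.3, 6911, 4810.4 and 7009 in Set1 and at 3929.8 to 5124 (median 4283) in Set2, with its high Set1 values at 2 h and 8 h. Nop10, a small nucleolar protein, showed the same 2 high libraries, 461, 448, 889, 526 and 903, as did the predicted gene Gm6204, 1467, 1651, 3597, 1779 and 4442.

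Some genes of no listed pathway carried the largest differences. Among genes averaging at least 100 normalized counts, Myh6, the heavy chain of cardiac myosin, stood at 401, 342, 330.0, 465 and 296 in Set1 and at 6.47 to 16.1 (median 13.0) in Set2 (4.79 ± 0.17, 27.6-fold). The Set1 library with Acta1, at 8 h, held the lowest Myh6 of the 5. Of 30 muscle transcripts, a list without Myh6, 24 were tested, 7 higher and 1 lower, against 22.9% and 22.2% of all genes. Des (desmin) differed by 1.74 ± 0.24 and Tnnt1, a slow-muscle troponin, by 2.86 ± 0.37. Acta1 did not pass the test (0.14 ± 0.91). The summed muscle list was 2931 to 4612 in Set1 and 1856 to 3936 in Set2. Apoc1, an apolipoprotein, stood at 205, 264, 310.2, 220.0 and 428 in Set1 and at 16.4 to 32.9 (median 23.1) in Set2 (3.49 ± 0.14). Neil2, a DNA glycosylase of base excision repair, stood at 2864, 3360.1, 2409.7, 1393 and 2800.4 in Set1 and at 109 to 814 (median 305) in Set2 (2.79 ± 0.15). The remainder of the 12, beside Ctsg, Ctla4, Aldoc and Cd200r2, were the septin Sept4 (3.01 ± 0.12), the transporter Slc6a13 (2.81 ± 0.10), Sytl1, which docks secretory granules (2.68 ± 0.13), the casein Csn3 (2.48 ± 0.090) and the transferrin relative Meltf (2.43 ± 0.12). Below that level, Gp6, the platelet collagen receptor, and Pof1b were higher by 4.44 ± 0.41 and 4.26 ± 0.33. The 12 and these 2 were above Set2 in every Set1 library.

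In the other direction, Fgl2, a secreted fibrinogen-like protein of regulatory T cells, stood at 13.0, 27.4, 30.5, 22.9 and 15.3 in Set1 and at 187 to 264 (median 235) in Set2 (-3.42 ± 0.13, 10.7-fold lower in Set1). St8sia4, a polysialyltransferase, stood at 117, 113, 131, 163 and 127 in Set1 and at 332 to 650.3 (median 524) in Set2 (-1.97 ± 0.092). Epdr1 had a small error for its size, 257, 287, 268, 277 and 328 in Set1 and 686 to 899.6 (median 738) in Set2 (-1.41 ± 0.049). Zan (-2.60 ± 0.17), Kremen1, a receptor of WNT inhibitors (-1.63 ± 0.10), the enamel protein gene Enam (-1.56 ± 0.10), Bpifb4 (-1.56 ± 0.081), Gpnmb (-1.53 ± 0.14), Runx1t1 (-1.53 ± 0.12), Dnm3 (-1.31 ± 0.11) and the carbonic anhydrase Car2 (-1.30 ± 0.10) completed the 12 largest with Itgae. Among lower-count genes, Lama2, a laminin chain, stood at 2.88, 0.946, 0, 1.70 and 2.70 in Set1 and at 59.9 to 98.5 (median 78.7) in Set2 (-5.00 ± 0.24). Cers6, a ceramide synthase, stood at 5.77, 9.46, 13.3, 14.4 and 3.60 and at 89.8 to 146 (median 121) (-3.73 ± 0.19), and Itpripl2 (-4.00 ± 0.15), Sidt1 (-3.49 ± 0.26), the guidance ligand Slit2 (-3.41 ± 0.27) and the apolipoprotein Apob (-3.11 ± 0.18) followed. In each of these genes all Set1 libraries lay below all Set2 libraries. Tyrp1, a pigment gene of melanocytes, had 0 reads in all 16 untreated libraries.

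The other lists showed smaller or mixed differences, beside 22.9% of all genes tested higher and 22.2% lower in Set1. Of 28 sterol and fatty acid synthesis genes tested 6 were higher and 9 lower, of 6 LXR targets 1 was higher and 2 lower, and of 15 cyclin D and CDK4/6 genes 4 were higher and 7 lower. Of 41 mitochondrial ribosome genes 2 were higher and 14 lower. Of 20 nuclear-retained RNAs 9 were higher and 0 lower (edgeR and DESeq2 also 0 lower, as at an unadjusted p below 0.05), and 2 were higher with no time factor. Over all genes the fit with no time factor called 2650 higher and 2702 lower. Of 12 TGF-beta receptors and targets 0 were higher and 4 lower (edgeR and DESeq2 also 0 higher, as at an unadjusted p below 0.05). Among markers of other tissues 1 of 3 liver and blood transcripts was higher, 1 of 6 fibroblast and matrix markers was higher and 1 of 3 melanocyte transcripts, Gpnmb, was lower. Transcripts encoded in the mitochondrial genome were not analysed here.

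The set difference was measured again in the exosome-treated libraries. There 2867 of 14307 genes (20%) were higher and 2991 (20.9%) lower in Set1. Acta1 was above 10 normalized counts in 3 of the 4 Set1 and 2 of the 8 Set2 treated libraries. Of 6454 genes called in untreated cells and tested in treated cells, 6344 (98.3%) had the same sign, 4686 (72.6%) were called with the same sign and 1 with the opposite sign. Of 5805 treated calls tested in untreated cells, 80.7% were called there with the same sign. Over 14148 genes the 2 differences had a Pearson r of 0.91 and a Spearman rho of 0.84, a description across genes from the same 2 sets. H2-Aa differed by 5.17 in treated cells, Ctsg by 3.84, Ctla4 by 2.89, Aldoc by 2.70, Fgl2 by -3.41, Lama2 by -4.99, Cd28 by -2.51 and Myc by -1.05. Tnfaip3 differed by 0.74 in treated against 1.90 in untreated cells, and Atf3, an immediate early and stress gene, differed by 0.73 ± 0.12 in untreated and by 0.02 in treated cells (adjusted p = 0.89); the change between treatments was not tested. For the G1/S list 0 of 35 genes were higher and the median was -0.31, for ribosome biogenesis the median was -0.45 and for hypoxia-inducible genes 15 of 21 were higher with a median of 0.57. Other lists repeated less closely. Cytosolic ribosomal proteins had 12 of 63 higher and 6 lower in treated cells, against 36 and 2 in untreated cells. The unfolded protein response had 5 of 20 higher and 2 lower, and NF-kB targets 3 of 19 higher and 10 lower. The effector cytokine median was -0.15 in treated and 0.15 in untreated cells.

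**Figure D5:**
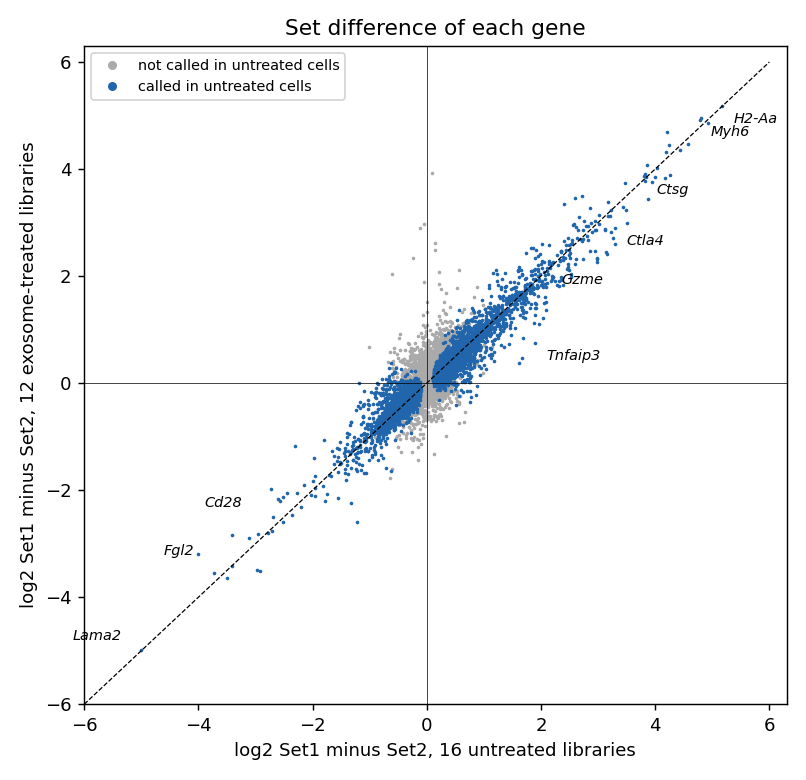
Log2 difference, Set1 minus Set2, of each gene in the 16 untreated libraries (horizontal) and the 12 exosome-treated libraries (vertical); blue points passed the test in untreated cells, grey points did not, and the dashed line marks equality. The points follow the line over the whole range (Pearson r 0.91), from Lama2 at -5.00 and -4.99 to H2-Aa at 5.18 and 5.17.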

How the data were processed

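RNA of CTLL2 cells was sequenced as 2 × 50 base pairs on a HiSeq1500 from TruSeq RNA Kit V2 libraries, per the labels' protocols. The authors deposited 1 table of 30608 genes and 28 libraries whose values are signal: read counts divided by 1 size factor per library. Tools listed without settings, per the submitters' processing notes, are featureCounts 1.5.0, STAR 2.4.2, CASAVA 1.8.4, R 3.3.2 and DESeq2, with the build GRCm38.p2. No label gives the annotation release or the strand setting, so overlapping and antisense genes cannot be told apart. All values came out as whole reads within 0.01 read (100% in each library), and the recovered reads gave the depth of each library. Gene symbols and positions are from GENCODE M21, in which 30439 identifiers were found.

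Libraries were grouped by title and set by the sample description. Genes with at least 10 normalized counts in at least 3 libraries were fitted with limma 3.58.1 (R 4.3.3; lmFit, eBayes with trend) on log2(normalized count + 1), with time as a factor, at a Benjamini-Hochberg adjusted p of 0.05. The residual degrees of freedom were 10 for set, 6 for set by time, 7 for treated libraries and 6 for 8 h against 0 h. None of the 18 pairs of untreated libraries of the same time agreed within sampling noise, and other pairs were not compared. Chi-square per degree of freedom was 2.97 to 6.46 for same-set pairs of 0 to 4 h. It was 28.5 for the 2 Set2 libraries of 8 h, and 21.6 to 133 for pairs from different sets. P-values measure the spread between these libraries, not the spread between repeated sets, since each set occurs only once. Set1 has 1 library per time, assumed to vary like those of Set2. On simulated data with 200 changed genes the set test found 80% of 1.5-fold and 95% of 2-fold changes among 14450 genes, with 8 false calls. The set-by-time test found 33% and 77%, with 16 false calls. Each gene was simulated independently, with no time effect and no shift shared by the genes of a library. These false calls therefore say nothing about calls that come from such shifts.

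The members and lists were chosen with earlier results of these data known, so list counts are descriptions. Named genes were, among genes called with the same sign at 5 of 5 times and with predicted, RIKEN and accession-like names left out, the 12 largest each way with a mean of at least 100 counts and the 6 largest each way below it, the 6 of smallest p for set by time, up to 4 called members per list by size of change, and 11 fixed genes (Gzmb, Prf1, Ifng, Il2ra, Myc, Cd8a, Cd3e, Il12rb2, Ptpn11, Acta1 and Tyrp1). Gzma, Gzmk, Ciita, H2-DMb2 and the other genes of both loci, and the low markers, were chosen after their values were seen. Alternatives were edgeR 4.0.16 and DESeq2 1.42.0 on recovered reads, other scalings, filters and pseudocounts, thinned reads, no time factor, a replicate block, all 28 libraries, array weights and libraries or times left out; leaving out the libraries with Acta1, and 2 h with 8 h, was chosen after seeing the data. Promoter sequences are from RefSeq (GRCm38.p6).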

Additional observations from a re-analysis of the deposited data

Results flagged for a closer look

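The set difference of 6 genes changed with time by the interaction test (limma, adjusted p = 0.00796 for each of Etv4, Rgs11, Arnt2, Nop10, Anxa1 and Gm6204). A further 34 of the named genes also passed that test. Leaving out a single Set2 library of 0 to 4 h reduced the genes passing it to between 73 and 438 of the 1071, so the count depends on single libraries.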

How the results depend on the processing

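No called difference of a named gene changed sign. Of all 6518 untreated calls, 5 had the opposite sign (called or not) with a replicate block and 2 with 2 h and 8 h left out. It was 1 with all 28 libraries and 0 under the other alternatives. Of the treated calls, 54 of 5621 had the opposite sign (called or not) without the libraries with Acta1 above 10. Those were 3 of the 4 treated Set1 and 2 of the 8 treated Set2 libraries, so little of Set1 remained in that fit. With a replicate block 3231 genes were called (1688 higher, 1543 lower) against 6518; the Set1 library has replicate number 1 at 4 of 5 times, so the block nearly coincides with the set, and no number occurs in both sets within a time. The count without 1 library lay between 5678 and 6711 (2864 to 3351 higher, 2814 to 3360 lower), and under the other alternatives between 5071 (mean of at least 100) and 8547 (all 28 libraries). edgeR called 6524 genes, sharing 6340 with the 6518, and DESeq2 called 6414. More genes were lower than higher with TMM scaling (3166 higher, 3369 lower) and upper-quartile scaling (2909 and 3588, or 44.8% higher against 50.7%). In treated libraries leaving out 1 gave 4590 to 6354 calls (2181 to 3097 higher, 2409 to 3257 lower). Set by time gave 73 to 5586 calls without 1 library and 76 without 2 h, against 1071, and the cause was not tested. For 8 h against 0 h in Set2 the count was 2568 to 5380 (1117 to 2792 higher, 1405 to 2588 lower) without 1 library, and 1248 were lower among genes averaging at least 100, where fewer genes were tested. Leaving out 1 library moved the set difference in the share of the 10 largest genes between 1.11 and 1.60 percentage points, genes at 0 between -0.482 and 2.88, other non-coding reads between 0.126 and 0.317, pseudogene reads between 0.0958 and 0.377 and total reads between -2973050 and -703414; without the Set1 0 h library the first no longer passed, where fewer arrangements remained. Of 5956 values of named genes under alternatives 5789 kept direction and call, 147 lost the call, 10 gained it and 10 uncalled values changed sign. The array weights fit stopped before converging. The planned removal of libraries by summed muscle transcripts removed 0 libraries and was not run.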
